A study of Mus musculus with 6 samples.

Results

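The transcripts described here are 32 genes of mitosis and the spindle, chosen by name in a table of 17169 gene entries. Each of the 32 had exactly 1 entry, and all 32 averaged at least 1 FPKM, the filter for testing. FPKM are sequenced fragments scaled by transcript length and by library total, so levels can be compared between genes per length. The deposited values nevertheless summed to between 607561 and 4518740 FPKM per library, lower with BGJ398 than with DMSO in each line. Transcript levels came from RNA sequencing of 3 mouse cell lines, titled ZNF, BBC and BCRF8C, which grew out of marrow of diseased Balb/c mice. Their disease, stem cell leukemia and lymphoma (SCLL), arises when the kinase part of the growth factor receptor FGFR1 is fused to another protein. The cells received BGJ398 (infigratinib), an inhibitor of FGFR kinases, or its solvent DMSO for 24 h, and the design text asks how their transcriptomes differ with and without FGFR1 inhibition. With 1 library per line and agent there were 3 BGJ398 libraries and 3 DMSO libraries, and no replicate within a line. If the doses follow the order in which the protocol lists the lines (there named BBC2, ZNF112 and BCRF8C), ZNF received 3 nM, BBC 30 nM and BCRF8C 1.5 nM, so dose and line cannot be told apart. No label names the fusion of a line or the clones behind it, and all 6 cultures are from the same mouse strain.

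A dividing cell enters mitosis when cyclin B and the kinase CDK1 become active, helped by the Polo and Aurora kinases. Kinetochores then fasten chromosomes to spindle microtubules, the spindle checkpoint holds the cell until all are attached, and the anaphase-promoting complex ends the wait by marking cyclins and securin for destruction. Genes for these proteins are transcribed late in the cell cycle. The factor NF-Y, at CCAAT boxes, and MuvB-containing complexes (repressive in resting cells, activating together with B-MYB and FOXM1 in dividing cells), at a short element called the cell cycle genes homology region, are known to control many of them. In cultures measured in bulk, fewer dividing cells and less of these RNAs per cell cannot be told apart.

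The RefSeq promoter table (build GRCm38.p6) held a window of 300 bases, 250 before and 50 after the start of transcription, for 27 of the 32 genes. Aurkb, Ccna2, Incenp, Kif20a and Tpx2 were not among them. The windows of 4 genes that mark the ends of the pattern are shown: Plk1 had the lowest ratio in ZNF, Cdc20 the lowest mean ratio, Ccnb2 the largest level left in BBC relative to ZNF among the entry genes, and Cenpf the weakest mean ratio. Each is written 5′ to 3′ on the strand of its gene. Capitals mark CCAAT and TTTGAA, or their reverse complements ATTGG and TTCAAA.
Plk1 promoter, chr7:122159185-122159484, plus strand: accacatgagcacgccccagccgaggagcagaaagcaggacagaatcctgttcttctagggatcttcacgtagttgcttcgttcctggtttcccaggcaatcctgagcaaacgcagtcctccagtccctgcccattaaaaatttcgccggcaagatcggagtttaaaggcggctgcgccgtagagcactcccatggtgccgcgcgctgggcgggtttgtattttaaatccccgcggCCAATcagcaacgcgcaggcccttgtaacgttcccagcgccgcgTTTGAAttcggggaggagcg
Cdc20 promoter, chr4:118437294-118437593, minus strand: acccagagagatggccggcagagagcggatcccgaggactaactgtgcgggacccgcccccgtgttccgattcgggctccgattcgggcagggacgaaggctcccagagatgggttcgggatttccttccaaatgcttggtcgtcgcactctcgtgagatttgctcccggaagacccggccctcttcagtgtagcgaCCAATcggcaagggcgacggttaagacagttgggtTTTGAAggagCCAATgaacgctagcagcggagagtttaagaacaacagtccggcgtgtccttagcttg
Ccnb2 promoter, chr9:70421505-70421804, minus strand: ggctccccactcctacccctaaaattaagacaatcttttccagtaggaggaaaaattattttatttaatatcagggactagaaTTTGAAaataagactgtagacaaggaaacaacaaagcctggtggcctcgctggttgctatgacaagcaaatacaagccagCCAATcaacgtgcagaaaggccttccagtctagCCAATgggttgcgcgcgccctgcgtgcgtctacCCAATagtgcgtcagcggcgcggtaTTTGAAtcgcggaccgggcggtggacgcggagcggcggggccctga
Cenpf promoter, chr1:189688037-189688336, minus strand: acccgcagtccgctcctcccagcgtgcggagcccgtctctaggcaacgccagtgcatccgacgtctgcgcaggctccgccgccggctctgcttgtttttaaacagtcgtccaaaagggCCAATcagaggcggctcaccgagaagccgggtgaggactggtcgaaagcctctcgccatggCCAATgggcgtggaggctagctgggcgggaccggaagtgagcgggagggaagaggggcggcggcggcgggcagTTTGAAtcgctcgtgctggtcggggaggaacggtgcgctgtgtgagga
Counted from the first transcribed base, the CCAAT boxes of Ccnb2 begin at -87, -54 and -21, those of Cdc20 at -53 and -8, those of Cenpf at -132 and -71, and that of Plk1 at -14. A CCAAT on either strand occurred in 20 of the 27 windows (74.1%), compared with 37.4% of the 32851 windows in the table. Each of the 27 genes counts once, by its first listed window, whereas the shares of all count every window. TTTGAA on either strand occurred in 20 windows (74.1%, against 17.9% of all), and its variant TTCGAA, which reads the same on both strands, in 3 (11.1%, against 1.56% of all). Both a CCAAT and one of the TTTGAA or TTCGAA letters stood in 18 windows (66.7%), compared with 7.52% of all. The last 30 bases of the window read in a GENCODE transcript of the same gene for 22 of the 27, and CCAAT and ATTGG copies may overlap. These are matches of letters and not shown to be bound. The window of Cenpf, the gene with the weakest ratio, holds both elements like that of Plk1.

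All 32 genes were lower with BGJ398 than with DMSO in each of the 3 lines as deposited, while 55.7% of all 14232 entries tested were lower in all 3. Most entries averaging 10 FPKM or more in a line, a level chosen after the values were seen, were lower there too. These were 5547 of 6112 in ZNF, 5584 of 6121 in BBC and 5526 of 5942 in BCRF8C. In 30 of the 32, the 3 BGJ398 libraries all lay below the 3 DMSO libraries. This held for 35.1% of all entries, a share not matched for level. In the limma test across lines (BGJ398 against DMSO on log2(FPKM + 1), line as a block, Benjamini-Hochberg adjusted over 14232 entries, called under 0.05), 28 of the 32 fell and 0 rose, and 30 had an unadjusted p under 0.05. Of all entries 30.2% fell and 6.61% rose in that test, and 7812 of the 14232 had an unadjusted p under 0.05. The share that fell depended on which entries were fitted. With only the 9109 entries averaging 5 FPKM or more fitted, all 32 genes among them, 53.9% of entries fell. That fit called 4910 entries lower, against 4295 in the fit of all 14232, so the higher share does not reflect level alone. In that fit 29 of the 32 genes fell, and 6038 of the 9109 entries had an unadjusted p under 0.05. The 4 that did not pass in the fit of all 14232 entries were Mki67, Cenpe, Cenpf and Nusap1, and of these Cenpe passed in the fit of 9109. The median ratio of the 32 genes was -1.45 (log2, mean over the lines), compared with -0.69 for all entries and -1.06 for those averaging 5 FPKM or more. All 28 calls ended with each of 3 other scalings of the libraries, without the line as a block, and without BBC, and 27 of them ended without BCRF8C. The median ratio of the 32 was -1.52 without BBC and -1.44 without BCRF8C, against -0.58 and -0.65 for all entries. Leaving out the block cannot change the ratios, because each line has 1 library per agent. Calls below are those of the fit of all 6 libraries as deposited with the line as a block. The 53.9% set beside them comes from the separate fit of 9109 entries.

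The libraries themselves differed. Over the tested entries the median level was 6.47 FPKM in ZNF, 4.53 in BBC and 4.92 in BCRF8C with BGJ398, against 8.36, 9.95 and 9.03 FPKM with DMSO. Entries above 0 but under 1 FPKM numbered 539, 847 and 639 with BGJ398, against 3003, 3309 and 4483 with DMSO, so the low end was thinner with BGJ398 and the range of levels narrower in each line. How much of a gene's fall comes from this was not tested, and ratios are therefore also given with the trend of the ratio on expression level removed within each line. Lineage markers differed between lines: 7 B lineage genes summed to 9.54 FPKM in ZNF, 713 in BBC and 9.10 in BCRF8C with BGJ398, against 3.09, 1312 and 0.654 FPKM with DMSO. The 5 T lineage genes with an entry summed to 514, 34.1 and 11.4 FPKM with BGJ398, against 832, 33.6 and 4.81 FPKM with DMSO. Cd79b was at 0 in ZNF and BCRF8C, and Cd3d was at 0 in BCRF8C. Markers of myeloid (2 of 8 with an entry) and erythroid cells (2 of 5) summed to at most 5.97 and 5.17 FPKM in any library. The 3 stromal markers with an entry (of 6) summed to 3.20, 7.96 and 16.6 FPKM with BGJ398, against 0.372, 3.16 and 1.20 FPKM with DMSO. The part of these markers in the results was not tested.

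The genes that drive entry into mitosis fell in all 6 cases as deposited. Of all entries 30.2% fell and 35.1% had separate groups, while 53.9% of those averaging 5 FPKM or more fell. Cdk1 (ENSMUSG00000019942, chromosome 10, 68799383 to 68815686 in NCBIM37), the kinase that starts mitosis, stood at 71.7 FPKM in ZNF, 103 in BBC and 46.8 in BCRF8C with BGJ398, against 200.4, 323 and 305 FPKM with DMSO. Its partner cyclin B1, Ccnb1, stood at 31.2, 54.1 and 46.4 FPKM with BGJ398, against 108, 102 and 105 FPKM with DMSO in the same order of lines. The other B-type cyclin gene, Ccnb2, stood at 25.6, 82.0 and 36.6 FPKM with BGJ398, against 93.2, 173 and 116 FPKM with DMSO. The BGJ398 and DMSO groups did not overlap for these 3 genes, and Cdk1 kept the least in BCRF8C, whereas both cyclin B genes kept the least in ZNF. Their mean ratios were -1.93 ± 0.65 for Cdk1, -1.27 ± 0.44 for Ccnb1 and -1.51 ± 0.39 for Ccnb2 (log2, SD, n = 3 lines), with limma adjusted p of 0.0351, 0.0481 and 0.0370. Cyclin A2, which acts in S phase and up to early mitosis, had transcript levels (Ccna2) of 42.4, 63.0 and 58.0 FPKM with BGJ398, against 107, 213 and 139.6 FPKM with DMSO. Plk1 (ENSMUSG00000030867, chromosome 7, 129302951 to 129313389), the Polo kinase needed for spindle assembly and cytokinesis, stood at 8.46, 11.9 and 9.16 FPKM with BGJ398, against 37.5, 31.6 and 35.0 FPKM with DMSO. Aurka, the Aurora kinase of the centrosome, stood at 15.7, 17.3 and 9.24 FPKM with BGJ398, against 47.9, 38.8 and 39.5 FPKM with DMSO. None of these genes overlapped between the groups. With BGJ398 Plk1 was lowest in ZNF and Aurka in BCRF8C, while with DMSO Plk1 was similar in the 3 lines. The mean ratios were -1.44 ± 0.27 for Ccna2, -1.73 ± 0.35 for Plk1 and -1.55 ± 0.43 for Aurka, with adjusted p of 0.0397, 0.0348 and 0.0348 in limma.

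**Figure D1:**
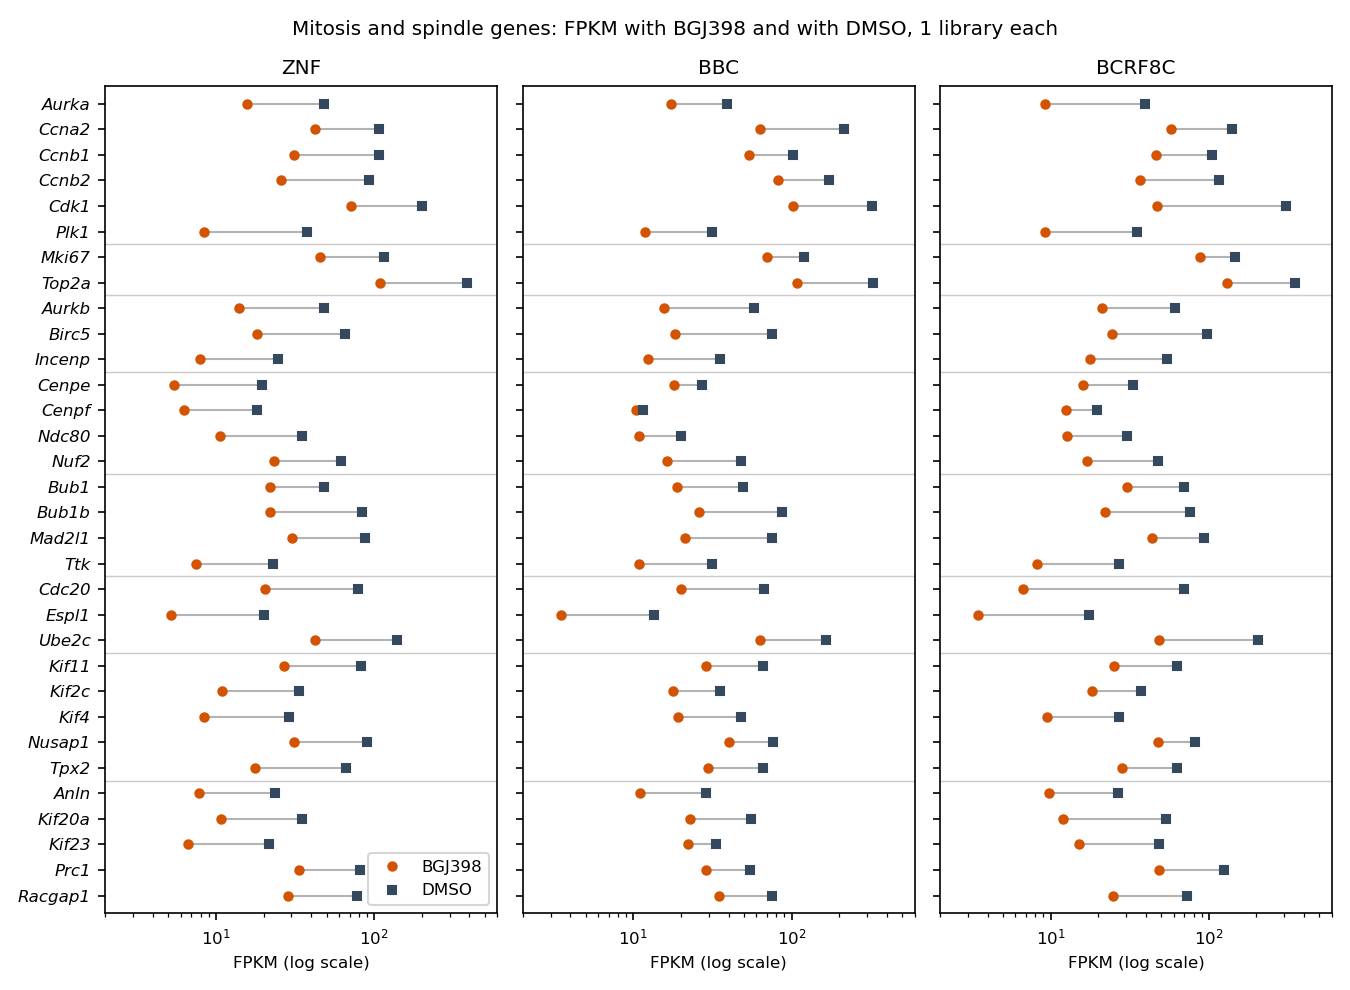
Level of each of the 32 genes (FPKM, log axis) in ZNF, BBC and BCRF8C, with circles for the BGJ398 library and squares for the DMSO library of the line (1 library each, as deposited). Every circle lies left of its square, by the least for Cenpf in BBC (10.4 FPKM with BGJ398, 11.4 with DMSO) and by the most for Cdc20 in BCRF8C (6.67 FPKM with BGJ398, 69.5 with DMSO), and with the expression trend removed 25 of the genes in BBC and 19 in BCRF8C are not below 0.

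Of the chromosome proteins, Top2a fell as deposited and Mki67 did not pass. Over all entries the shares were 30.2% lower and 35.1% with separate groups, and 53.9% of those averaging 5 FPKM or more fell. Top2a, the topoisomerase that untangles sister chromosomes, stood at 109 FPKM in ZNF, 108 in BBC and 130.1 in BCRF8C with BGJ398, against 384, 327 and 349 FPKM with DMSO. It was the most abundant of the 32 in every line with BGJ398, and its groups were apart (mean ratio -1.60 ± 0.20, limma adjusted p = 0.0427). Mki67, the coat protein of mitotic chromosomes used as a proliferation marker, stood at 45.6, 70.1 and 88.2 FPKM with BGJ398, against 115, 119.7 and 146 FPKM with DMSO. Its groups did not overlap either, yet at -0.93 ± 0.33 it did not pass (adjusted p = 0.103 in limma).

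The chromosomal passenger complex, which corrects faulty attachments and later guides cytokinesis, had 3 of 3 genes lower in limma as deposited, with closely similar ratios in the 3 lines. By comparison, 30.2% of all entries fell and 35.1% had separate groups, and 53.9% of those averaging 5 FPKM or more fell. Birc5 (survivin; ENSMUSG00000017716, chromosome 11, 117710565 to 117717069), which targets the complex to centromeres, stood at 18.2 FPKM in ZNF, 18.3 in BBC and 24.5 in BCRF8C with BGJ398, against 65.8, 74.9 and 96.8 FPKM with DMSO. Aurkb, its kinase, stood at 13.9, 15.6 and 21.0 FPKM with BGJ398, against 48.1, 58.2 and 61.3 FPKM with DMSO. Incenp, the scaffold of the complex, stood at 7.95, 12.4 and 17.8 FPKM with BGJ398, against 24.7, 35.5 and 54.7 FPKM with DMSO. All 3 had separate groups. BCRF8C held the most of all 3 with BGJ398 and also with DMSO. Mean ratios were -1.90 ± 0.10 for Birc5, -1.69 ± 0.17 for Aurkb and -1.51 ± 0.06 for Incenp, each with a limma adjusted p = 0.0348.

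Of the kinetochore genes, Ndc80 and Nuf2 passed as deposited, and Cenpe and Cenpf did not, Cenpe only narrowly. The shares over all entries were 30.2% lower and 35.1% with separate groups, and 53.9% of those averaging 5 FPKM or more fell. Ndc80, the microtubule-binding subunit of the outer kinetochore, stood at 10.6 FPKM in ZNF, 10.8 in BBC and 12.8 in BCRF8C with BGJ398, against 34.7, 19.9 and 30.3 FPKM with DMSO. Nuf2, its partner in the same complex, stood at 23.4, 16.4 and 17.0 FPKM with BGJ398, against 61.3, 48.2 and 47.9 FPKM with DMSO. Both had separate groups, with mean ratios of -1.21 ± 0.40 and -1.43 ± 0.07 (limma adjusted p = 0.0377 and 0.0348). Cenpe, a kinetochore motor that moves chromosomes to the spindle equator, stood at 5.45, 18.2 and 16.1 FPKM with BGJ398, against 19.6, 27.2 and 33.2 FPKM with DMSO. Cenpf (ENSMUSG00000026605, chromosome 1, 191464478 to 191511965), a large protein of the kinetochore's outer layer, stood at 6.26, 10.4 and 12.5 FPKM with BGJ398, against 18.1, 11.4 and 19.7 FPKM with DMSO. In both genes ZNF had the lowest level with BGJ398. The level of Cenpf in BBC barely differed between the agents, and its groups overlapped, because BCRF8C with BGJ398 exceeded BBC with DMSO. Cenpe had a mean ratio of -1.08 ± 0.56 (adjusted p = 0.0527) and Cenpf one of -0.71 ± 0.64 (adjusted p = 0.136), both from limma and both short of the threshold. For Cenpe this hinged on the filter. It passed in limma among entries averaging 5 FPKM or more (adjusted p = 0.0307) and among those above 0 in all 6 libraries (0.0255). Cenpf passed in neither (0.0881 and 0.0994).

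Genes of the spindle checkpoint fell in 4 of 4 cases as deposited. Among entries averaging 5 FPKM or more 53.9% fell, and of all entries 30.2% fell and 35.1% had separate groups. Bub1, a kinase that recruits checkpoint proteins to kinetochores, stood at 21.8 FPKM in ZNF, 18.9 in BBC and 30.5 in BCRF8C with BGJ398, against 48.4, 49.3 and 69.2 FPKM with DMSO. Bub1b (BUBR1), part of the complex that holds back anaphase, stood at 21.8, 26.0 and 22.0 FPKM with BGJ398, against 83.5, 87.1 and 75.5 FPKM with DMSO. Their groups were apart, and Bub1b had similar levels in the 3 lines under either agent. Mad2l1, which binds and inhibits CDC20, stood at 30.3, 21.1 and 43.9 FPKM with BGJ398, against 87.4, 75.7 and 93.4 FPKM with DMSO. Ttk (MPS1), the kinase at the head of the checkpoint, stood at 7.53, 10.9 and 8.24 FPKM with BGJ398, against 22.8, 31.6 and 27.2 FPKM with DMSO. Mad2l1 kept more in BCRF8C than in the other lines, and all groups were again separate. Mean ratios were -1.20 ± 0.12, -1.78 ± 0.10, -1.45 ± 0.36 and -1.51 ± 0.08 for Bub1, Bub1b, Mad2l1 and Ttk, with limma adjusted p of 0.0394, 0.0348, 0.0361 and 0.0348.

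The genes that release anaphase included the lowest ratio of all 32. Cdc20 (ENSMUSG00000006398, chromosome 4, 118100698 to 118109957), the activator of the anaphase-promoting complex at that step, stood at 20.3 FPKM in ZNF, 20.1 in BBC and 6.67 in BCRF8C with BGJ398, against 78.5, 66.8 and 69.5 FPKM with DMSO. Ube2c, the ubiquitin-conjugating enzyme of that complex, stood at 42.3, 63.6 and 48.5 FPKM with BGJ398, against 139, 166 and 206 FPKM with DMSO. Espl1 (separase), the protease that cuts cohesin, stood at 5.17, 3.498 and 3.46 FPKM with BGJ398, against 20.0, 13.4 and 17.4 FPKM with DMSO. All 3 fell as deposited with separate groups, and each kept less of its DMSO level in BCRF8C than in the other lines. Of all entries 30.2% fell and 35.1% had separate groups, and 53.9% of those averaging 5 FPKM or more fell. Cdc20 in BCRF8C had a log2 ratio of -3.20, compared with -1.90 in ZNF and -1.69 in BBC. The mean ratios were -2.26 ± 0.82 for Cdc20, -1.71 ± 0.35 for Ube2c and -1.83 ± 0.19 for Espl1, with adjusted p between 0.0348 and 0.0350 in limma.

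Spindle genes fell in 4 of 5 cases as deposited. For all entries the shares were 30.2% lower and 35.1% with separate groups, and 53.9% lower among those averaging 5 FPKM or more. Kif11, the bipolar motor that pushes the spindle poles apart, stood at 27.1 FPKM in ZNF, 28.9 in BBC and 25.1 in BCRF8C with BGJ398, against 82.1, 65.6 and 63.0 FPKM with DMSO. Kif2c, which takes microtubules apart at centromeres, stood at 10.9, 17.7 and 18.2 FPKM with BGJ398, against 33.5, 35.2 and 37.0 FPKM with DMSO. Kif4, a motor of chromosome arms and the central spindle, stood at 8.42, 19.2 and 9.48 FPKM with BGJ398, against 28.9, 47.9 and 27.0 FPKM with DMSO. The groups of these motors were apart, and Kif4 was highest in BBC under both agents. Tpx2, the activator of Aurora A on the spindle, stood at 17.5, 29.9 and 28.2 FPKM with BGJ398, against 66.4, 65.6 and 63.1 FPKM with DMSO. Nusap1, which bundles spindle microtubules, stood at 31.0, 40.3 and 47.8 FPKM with BGJ398, against 89.9, 76.6 and 81.7 FPKM with DMSO. Both were lowest in ZNF with BGJ398 and similar in the 3 lines with DMSO, and the groups of both were apart. Mean ratios were -1.34 ± 0.21, -1.16 ± 0.33, -1.45 ± 0.20 and -1.37 ± 0.43 for Kif11, Kif2c, Kif4 and Tpx2 (limma adjusted p between 0.0348 and 0.0410). Nusap1 did not pass at -1.06 ± 0.39 (adjusted p = 0.0660).

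Cytokinesis genes fell in 5 of 5 cases as deposited. By comparison, 53.9% of entries averaging 5 FPKM or more fell, and of all entries 30.2% fell and 35.1% had separate groups. Prc1, which crosslinks the central spindle, stood at 33.7 FPKM in ZNF, 28.6 in BBC and 48.5 in BCRF8C with BGJ398, against 80.8, 54.5 and 124 FPKM with DMSO. Kif23, the motor of the centralspindlin complex, stood at 6.70, 22.2 and 15.2 FPKM with BGJ398, against 21.8, 33.4 and 48.7 FPKM with DMSO. Racgap1, the GTPase-activating partner of Kif23 in that complex, stood at 28.7, 34.7 and 24.8 FPKM with BGJ398, against 78.3, 74.9 and 72.8 FPKM with DMSO. The groups of Kif23 overlapped slightly, since BBC with BGJ398 was just above ZNF with DMSO, while those of the other two were apart. Kif20a, a motor that brings Plk1 to the central spindle, stood at 10.7, 22.9 and 11.9 FPKM with BGJ398, against 35.2, 55.4 and 53.5 FPKM with DMSO. Anln (anillin), the scaffold of the contractile ring, stood at 7.76, 10.9 and 9.72 FPKM with BGJ398, against 23.5, 28.7 and 26.8 FPKM with DMSO. Kif20a kept about the same level in ZNF and BCRF8C and more in BBC, and Anln was similar throughout. Mean ratios were -1.16 ± 0.22, -1.25 ± 0.59, -1.34 ± 0.22, -1.65 ± 0.42 and -1.39 ± 0.09 for Prc1, Kif23, Racgap1, Kif20a and Anln, with adjusted p between 0.0348 and 0.0488 in limma.

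The levels of the 32 genes differed more between the lines with BGJ398 than with DMSO. The highest line over the lowest was a median of 1.65-fold with BGJ398 (at most 3.33-fold, Cenpe), against 1.34-fold with DMSO (at most 2.27-fold, Prc1). The median level of the 32 was 19.3 FPKM in ZNF, 20.6 in BBC and 21.5 in BCRF8C with BGJ398, against 63.5, 56.8 and 63.1 FPKM with DMSO. With DMSO 21 genes differed by less than 1.5-fold between the lines. The summed level was 767 FPKM in ZNF, 1030.5 in BBC and 949 in BCRF8C with BGJ398, against 2386, 2631 and 2734 FPKM with DMSO. Whole libraries summed to 1509400 FPKM in ZNF, 830830 in BBC and 607561 in BCRF8C with BGJ398. With DMSO they summed to 4518740, 2100010 and 1755780 FPKM, so a lower sum was not particular to the 32 genes. ZNF held the lowest BGJ398 level of the 3 lines for 21 of the 32 genes, compared with 5 for BBC and 6 for BCRF8C. Over the 8518 entries averaging 5 FPKM or more and above 0 in all 6 libraries, which include the 32, the lowest BGJ398 level was in ZNF for 14.5%, and the spread between the lines was also wider with BGJ398, at a median of 2.62-fold, than with DMSO, at 1.87-fold. No test was made of these spreads.

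Within single lines, where 1 library per agent allows no test, ZNF was the line in which these genes stood furthest from other genes. All 32 were at least 2-fold lower in ZNF, against 16.3% of the entries that averaged 1 FPKM or more there. In BBC 23 genes (71.9%) were that much lower, against 45.0% of entries, and in BCRF8C 28 (87.5%), against 43.5% of entries. Among entries averaging 5 FPKM or more in the line, the shares at least 2-fold lower were 21.8% in ZNF, 66.0% in BBC and 64.6% in BCRF8C, so in BBC the share of the 32 genes was close to that of other genes of such levels. The median ratio of the 32 was -1.57 in ZNF (all entries tested -0.37), -1.29 in BBC (-0.91) and -1.43 in BCRF8C (-0.76), or -1.20, -0.38 and -0.67 relative to all entries. The ratios also clustered more tightly in ZNF, between -2.02 for Plk1 and -1.11 for Bub1 (SD over genes 0.21). In BBC they ran between -1.98 for Birc5 and -0.13 for Cenpf (SD 0.43), and in BCRF8C between -3.20 for Cdc20 and -0.62 for Cenpf (SD 0.54). The tighter spread in ZNF was not particular to the 32 genes. Over entries averaging 1 FPKM or more in the line, the quartiles were -0.85 and 0.07 in ZNF. They were -1.55 and 0.10 in BBC, and -1.56 and 0.59 in BCRF8C. Against entries averaging 10 FPKM or more in the line, a comparison chosen after the values were seen, the median of the genes that pass was at -0.83 relative to them in ZNF (32 genes, 6112 entries), at 0.21 in BBC (31 genes, 6121 entries) and at 0.06 in BCRF8C (32 genes, 5942 entries).

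**Figure D2:**
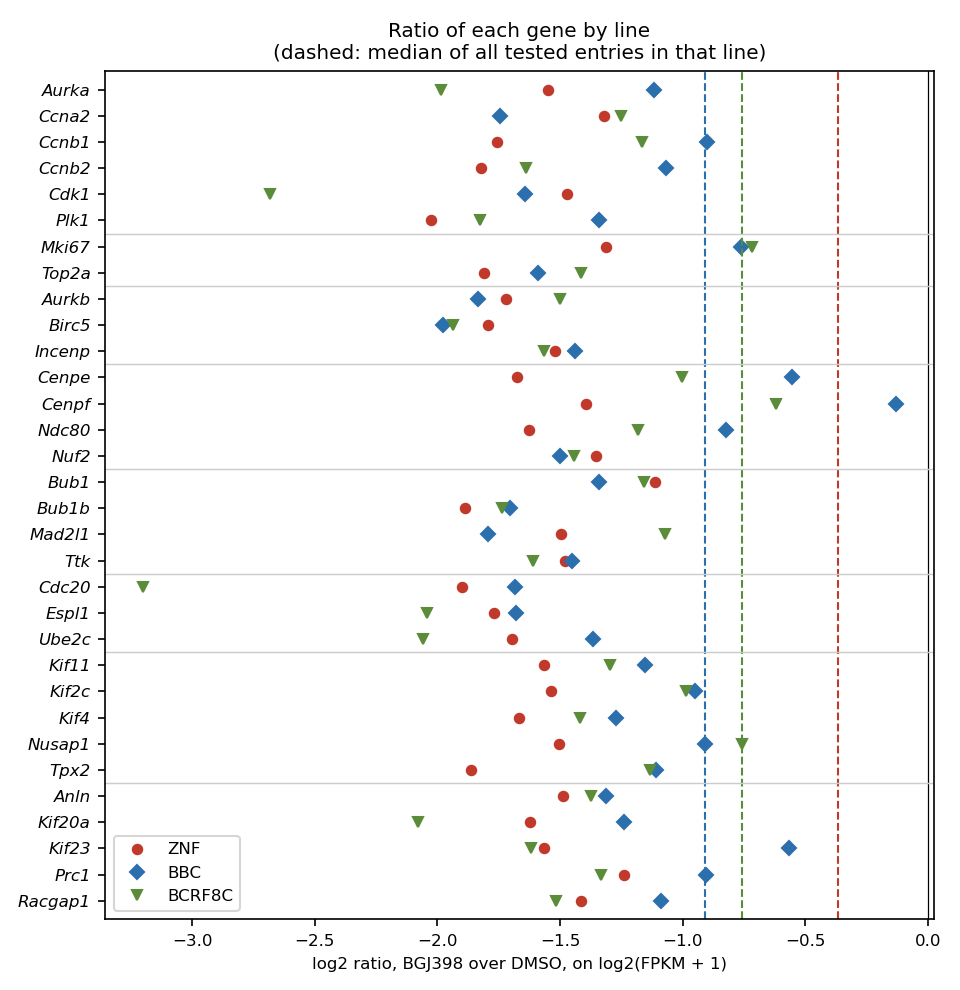
Log2 ratio of BGJ398 over DMSO for each gene on log2(FPKM + 1), as deposited, with 1 marker per line, and dashed lines at the median of all 14232 entries tested in ZNF (-0.37), BBC (-0.91) and BCRF8C (-0.76). The ZNF markers lie in a narrow band, all left of the ZNF median, while some BBC and BCRF8C markers reach or pass the median of their line, and in both of these lines the median of the genes relative to all entries turns positive under quantile normalization or once the expression trend is taken off.

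The ratio of an entry depended on its level, above all in BBC and BCRF8C, where highly expressed entries had lower ratios. With that trend removed within each line, all 32 genes lay below 0 in ZNF (49.8% of all entries did), 7 of 32 in BBC (49.4%) and 13 of 32 in BCRF8C (49.0%). Their medians were -0.88 in ZNF, 0.33 in BBC and 0.15 in BCRF8C. In all 3 lines together 5 of the 32 were below 0, against 25.3% of all entries, namely Birc5, Bub1b, Cdc20, Espl1 and Ttk. Espl1 was clearly below the trend in every line (-1.21 in ZNF, -0.59 in BBC and -0.96 in BCRF8C). For Cdc20 the values were -1.08 in ZNF, -0.07 in BBC and -1.72 in BCRF8C, so that BCRF8C and ZNF were low and BBC was on the trend. Birc5 was below the trend by less, with -0.998 in ZNF, -0.36 in BBC and -0.21 in BCRF8C. Mki67 was the opposite case, with -0.42 in ZNF, 1.01 in BBC and 1.30 in BCRF8C, and Cenpf had -0.83 in ZNF, 1.14 in BBC and 0.74 in BCRF8C. In limma 0 of the 32 genes passed across lines on this scale (2 at an unadjusted p under 0.05), and 0 of all entries did (3280 at an unadjusted p under 0.05).

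**Figure D3:**
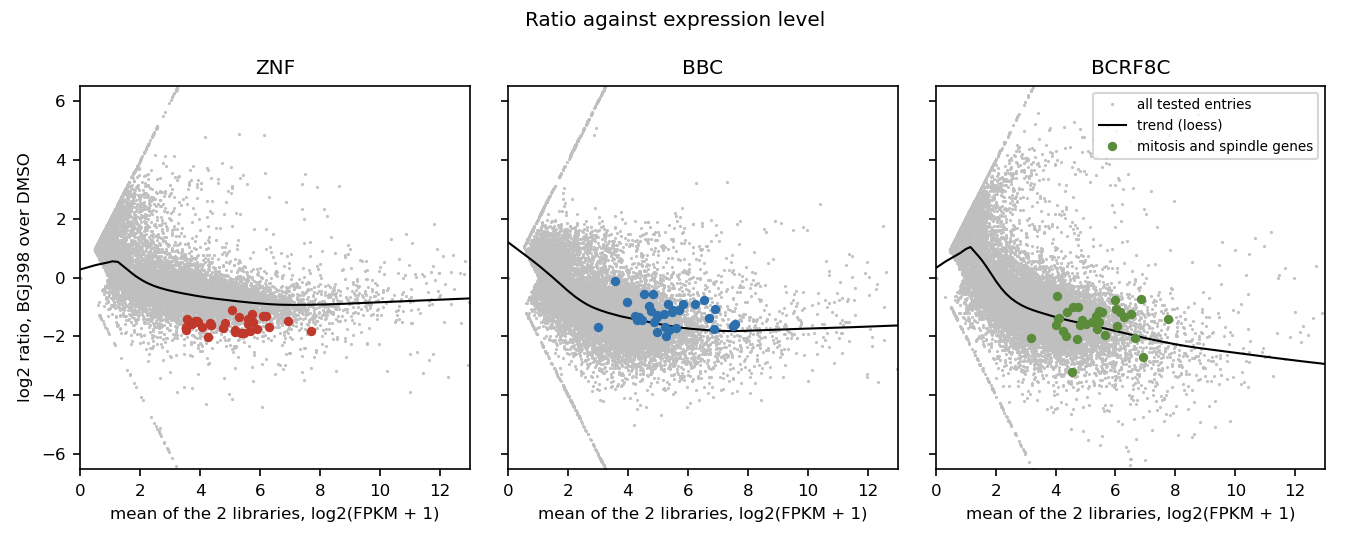
Log2 ratio of BGJ398 over DMSO against the mean level of the line's 2 libraries (both axes from log2(FPKM + 1)), with grey points for all tested entries, a black loess trend and coloured points for the 32 genes (a few entries beyond the axes are not shown). Straight streaks at the left edge are entries at or near 0 in 1 of the libraries. The trend falls over the low levels in each line and lies lower in BBC and BCRF8C than in ZNF over the range of the 32 genes, which are all below it in ZNF but spread about it in BBC and BCRF8C.

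Whether the ratio in ZNF differed from that of the other lines was tested with an added term in limma, in which the spread comes from BBC and BCRF8C alone (1 residual degree of freedom) and ZNF is taken to vary like them. As deposited, 0 of the 32 genes passed and 0 of all 14232 entries (0%; 1421 at an unadjusted p under 0.05, none of them among the 32). Adjusted p of the 32 ran between 0.508 for Cenpf and 0.999 for Aurka. The ratio in ZNF was below the mean of the other lines for 21 of the 32, compared with 24.3% of all entries, and the median difference was -0.13, compared with 0.53 for all entries. Cenpf (-1.02), Cenpe (-0.89) and Tpx2 (-0.74) were furthest below, and Cdk1 (0.69), Cdc20 (0.54) and Ccna2 (0.18) furthest above. With the expression trend removed, the ratio in ZNF was below the mean of the others for all 32 genes, against 46.9% of all entries, with a median difference of -0.99. The differences then ran between -1.82 for Cenpe and -0.19 for Cdc20. Still 0 genes passed (8 of the 32 at an unadjusted p under 0.05, 525 of all entries; adjusted p of at least 0.983 for each of the 32). A p that misses the threshold in this small design does not show that the lines responded alike.

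**Figure D4:**
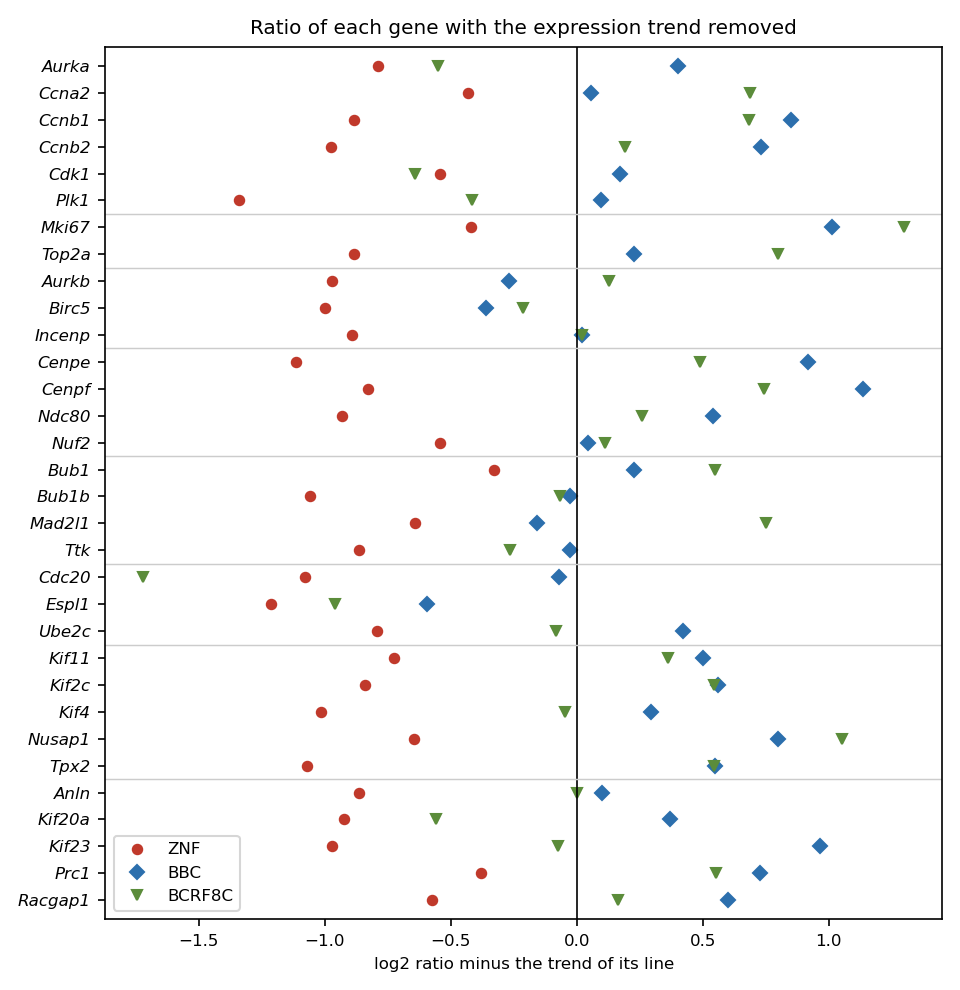
Log2 ratio of each gene minus the loess trend of its line, with 1 marker per line and a vertical line at 0, the trend itself. The ZNF markers of all 32 genes lie left of 0, whereas 7 BBC and 13 BCRF8C markers do. Espl1 is left of 0 in all 3 lines, and Mki67 is below 0 in ZNF but at 1.01 in BBC and 1.30 in BCRF8C.

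Other genes of the pathway were taken from 6 lists that hold none of the 32, with 113 of 116 genes tested (Bora, Ska2 and Ska3 had no entry). As deposited, 73 of the 113 fell in limma and 0 rose, beside the 30.2% of all entries and the 53.9% of entries averaging 5 FPKM or more that fell. The list of mitotic transcription factors had 5 of 17 lower, near the share of all entries, and a median ratio of -0.86, or -0.16 relative to all entries. That count hinged on the filter. Of its genes that passed, 8 fell in the fit of entries averaging 5 FPKM or more. Among entries above 0 in all 6 libraries, of which 44.5% fell, the count was 9. Mybl2, the B-MYB gene, fell (-1.61 ± 0.28, adjusted p = 0.0348), as did E2f4, an E2F factor that works with repressor pocket proteins (-1.78 ± 1.13, adjusted p = 0.0374). Lin52, a MuvB subunit (-0.25 ± 0.11, adjusted p = 0.481), and Rbl2, the pocket protein p130 (0.28 ± 0.47, adjusted p = 0.482), did not pass. E2f4 stood at 29.6 FPKM in ZNF, 4.21 in BBC and 6.33 in BCRF8C with BGJ398, against 41.8, 26.3 and 39.6 FPKM with DMSO, so that ZNF kept most of it. Foxm1, named after its values were seen, stood at 4.59, 5.21 and 7.74 FPKM with BGJ398, against 11.7, 13.9 and 23.8 FPKM with DMSO (-1.32 ± 0.17, limma adjusted p = 0.0348).

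Regulators of mitotic entry fell in 10 of 12 cases as deposited (median -1.38). For this list and the next, the shares that fell were 30.2% of all entries and 53.9% of those averaging 5 FPKM or more. The median of the latter was -1.06. Cdc25c, a phosphatase that activates CDK1 (-1.73 ± 0.55), and Ccnf, the F-box cyclin gene (-1.72 ± 0.12), were lowest, both with a limma adjusted p = 0.0348. Mastl, the Greatwall kinase (-0.70 ± 0.66, adjusted p = 0.137), and Cdc25b (-1.01 ± 1.13, adjusted p = 0.124) did not pass. Cdc25b, another CDK1-activating phosphatase, stood at 9.81 FPKM in ZNF, 33.9 in BBC and 6.01 in BCRF8C with BGJ398, against 29.9, 27.7 and 23.2 FPKM with DMSO. It was lower with BGJ398 in ZNF and BCRF8C and higher in BBC. In the list of kinetochore and centromere genes 21 of 26 fell (median -1.28), led by Spc24, a subunit of the NDC80 complex (-1.99 ± 0.45), and Cenpa, the centromeric histone gene (-1.94 ± 0.48), both at adjusted p = 0.0348 in limma. Mis12, which links the NDC80 complex to the centromere (-0.69 ± 0.47, adjusted p = 0.121), and Cenph, of the inner kinetochore (-0.84 ± 0.22, adjusted p = 0.0677), did not pass.

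Of the other spindle and cytokinesis genes 15 of 23 fell as deposited. Their median of -1.24 was not far from the -1.06 of entries averaging 5 FPKM or more, of which 53.9% fell in their separate fit. Of all entries 30.2% fell. Among the 15 were Fam64a (-1.99 ± 0.42) and the chromokinesin gene Kif22 (-1.82 ± 0.44), both at a limma adjusted p = 0.0348. Aspm, a spindle pole protein gene (-0.63 ± 0.39, adjusted p = 0.157), and Stil, needed for centriole duplication (-0.73 ± 0.39, adjusted p = 0.0894), did not pass. The list of the anaphase-promoting complex had 12 of 16 lower (median -1.22), to be read beside the same shares. Its lowest were Ube2s, which extends ubiquitin chains for the complex (-2.35 ± 0.96), and the subunit gene Anapc5 (-2.18 ± 0.71), both at adjusted p = 0.0348 in limma. The subunit genes Anapc10 (-0.61 ± 0.52, adjusted p = 0.152) and Anapc2 (-0.77 ± 0.17, adjusted p = 0.0660) did not pass.

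Condensin and cohesin genes fell in 10 of 19 cases as deposited, beside 30.2% of all entries in the same fit. In the separate fit of entries averaging 5 FPKM or more, 53.9% fell. The median of -1.15 for this list lay near the -1.06 of those entries. Cdca5 (sororin, -1.84 ± 0.15), which protects cohesion, and the condensin II subunit gene Ncaph2 (-1.71 ± 0.60) were lowest, both at a limma adjusted p = 0.0348. The cohesin loader gene Nipbl (-0.26 ± 0.16, adjusted p = 0.496) and the cohesin release gene Wapal (1.40 ± 1.48, adjusted p = 0.120) did not pass. Wapal had the highest mean ratio of the genes in these 6 lists, and it stood at 625 FPKM in ZNF, 88.5 in BBC and 271 in BCRF8C with BGJ398, against 123, 109.5 and 59.7 FPKM with DMSO. It was higher with BGJ398 in ZNF and BCRF8C and lower in BBC.

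With the expression trend removed, the lists differed from each other in ZNF. Their medians there were -0.74 for the other spindle and cytokinesis genes, -0.68 for mitotic entry and -0.58 for kinetochore and centromere genes. They were -0.18 for the anaphase-promoting complex, -0.16 for condensin and cohesin and -0.09 for mitotic transcription. The median of the 32 genes on that scale was -0.88. In BBC every list median was above 0, between 0.04 for mitotic entry and 0.36 for the other spindle and cytokinesis genes. In BCRF8C they lay between -0.42 for mitotic entry and 0.55 for condensin and cohesin. No test was made of these differences between lists.

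**Figure D5:**
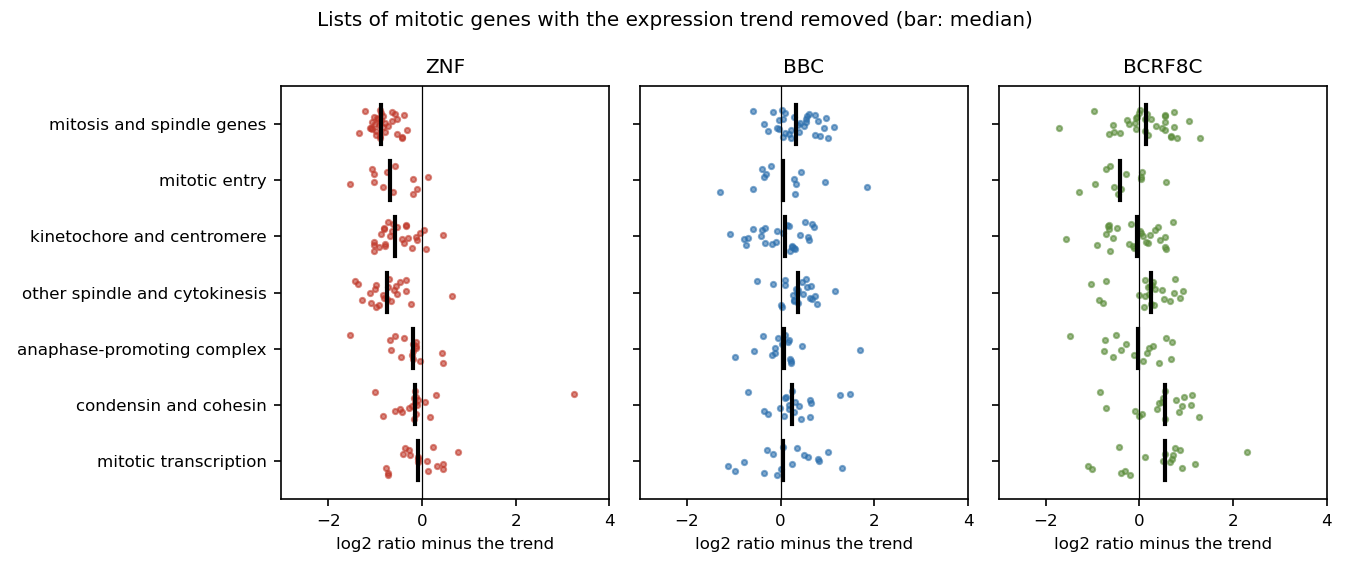
Log2 ratio minus the loess trend of the line for the genes of the 6 lists and for the 32 genes, with 1 point per gene and a bar at the median of each list. In ZNF the bars of the 32 genes (-0.88), of mitotic entry (-0.68), of the kinetochore (-0.58) and of other spindle genes (-0.74) lie well left of 0 and the other 3 near it, whereas in BBC all 7 bars are right of 0.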

How the data were processed

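RNA of 6 cultures (3 SCLL lines with BGJ398 or DMSO, 1 library each) was sequenced, and the authors deposited 1 table of FPKM values with 17169 gene entries and 6 value columns, of which 0 could not be matched to a sample by title. The submitters' processing notes name TopHat2 (2.0.12), bcl2fastq and the genome build NCBIM37. What computed the FPKM values, with which annotation and filters, is not stated for these files. Library strand and depth are not stated either. Low values showed no steps of whole reads, so depth is unknown and no counting interval is given. Loci are those of the deposited table, with starts raised by 1.

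Values were analysed as log2(FPKM + 1), on which changes of low genes are understated, for the 14232 entries that averaged 1 FPKM or more. BGJ398 was compared with DMSO in limma (3.58.1, R 4.3.3) with an intensity trend and the line as a block (2 residual degrees of freedom), two-sided, called at a Benjamini-Hochberg adjusted p under 0.05 over all entries. The tests were tried on simulated data first. The pairing is by cell line, and the paired libraries' deviations from the group means correlated at 0.541 in ZNF, 0.454 in BBC and 0.549 in BCRF8C. Repeat cultures are named nowhere, and the p-values reflect only how 3 lines at 3 doses differ. Within a line, entries at least 2-fold apart were counted without a test. Alternatives were median-of-ratios scaling, quantile normalization, removal of the loess trend (span 0.4), a pseudocount of 0.1, other filters, no block and leaving out a line. Promoter motifs were counted with Python (3.11.15).

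The 32 genes and all lists were chosen with earlier results of these data known. Each of the 32 is named, and from each other list the 2 genes with the lowest and the 2 with the highest mean ratio; 548 entries share a symbol with another entry, and the one with the highest mean stood for it. Of the B lineage markers, 1 is not reported here.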

Additional observations from a re-analysis of the deposited data

How the results depend on the processing

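Against the 28 of 32 genes called lower in limma as deposited, the count was 28 with a pseudocount of 0.1 and with no filter on low values, and it was 29 both among entries averaging 5 FPKM or more, of which 53.9% were lower, and among entries above 0 in all 6 libraries, of which 44.5% were. With median-of-ratios scaling, quantile normalization, removal of the expression trend or no replicate block the count was 0, and leaving out 1 line gave between 0 (without BBC) and 25 (without ZNF), with 1 without BCRF8C. Of all entries, 1, 1, 0 and 1 were lower in the first 4 of these fits, 0 without BBC, 852 without BCRF8C and 4795 without ZNF, against 4295. The count of genes that differed in ZNF was 0 under each alternative run. Genes at least 2-fold lower numbered 11 in ZNF, 0 in BBC and 2 in BCRF8C after quantile normalization. Those counts were 7, 0 and 1 with the expression trend removed, and 0 in BBC and 8 in BCRF8C with median-of-ratios scaling (30 in ZNF). The median relative to all entries turned to 0.17 in BBC and 0.033 in BCRF8C after quantile normalization, to 0.32 and 0.12 with the trend removed, and to 0.21 and 0.065 against entries averaging 10 FPKM or more in the line (chosen after seeing the data), while in ZNF it stayed between -1.24 and -0.83. The median of the ratio in ZNF minus the other lines was -0.80 on median-of-ratios scaled values, -0.87 on quantile normalized ones and -0.99 with the trend removed, against -0.13 as deposited, and between -0.33 and -0.13 with 1 other line left out.

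Mean ratios that turned positive after median-of-ratios scaling were, on the log2 scale, Cenpf 0.043, Lin52 0.40, Mastl 0.027, Mis12 0.058, Aspm 0.15, Anapc10 0.076 and Nipbl 0.51. After quantile normalization they were Mki67 0.49, Ccnb1 0.072, Bub1 0.030, Cenpf 0.26, Nusap1 0.29, Prc1 0.19, Lin52 0.051, Mastl 0.039, Mis12 0.26, Cenph 0.23, Aspm 0.51, Stil 0.10, Anapc10 0.0049 and Nipbl 0.81. With the expression trend removed they were Mki67 0.63, Top2a 0.046, Ccna2 0.10, Ccnb1 0.22, Bub1 0.15, Cenpe 0.098, Cenpf 0.35, Kif11 0.047, Tpx2 0.0085, Nusap1 0.40, Kif2c 0.088, Prc1 0.30, Racgap1 0.065, Lin52 0.20, Mastl 0.17, Cdc25b 0.16, Mis12 0.36, Cenph 0.32, Aspm 0.59, Stil 0.19, Anapc10 0.16, Anapc2 0.079 and Nipbl 0.89. Why these values turned was not tested. The depth behind the values is unknown, and 1 library per line and agent limits every statement within a line.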
